A study of Mus musculus with 16 samples.

Results

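Nprl3-/- (KO) and heterozygous (Het, Nprl3+/-) embryos were compared in S3 erythroblasts, the basophilic stage of red cell development, using 4 of the 16 RNA-seq libraries of the series. The libraries were chosen by genotype and stage alone. They are all the KO and Het libraries at S3, with embryos 2 (female) and 9 (male) on the KO side and embryos 3 and 4 (both male) on the Het side, and no wild-type library entered. S3 cells were sorted by Ter119 and CD71 from foetal livers at E13.5, 10000 to 30000 cells a library. The knockout is constitutive, on a C57BL/6J background. It removes the Nprl3 promoter region and keeps the α-globin enhancers that lie in Nprl3 introns, so every cell of the embryo carries it, and Het embryos carry it on 1 allele. The source and tissue fields of the labels name an embryonic stem cell line, which the titles, the sorting protocol and the counts below go against. The litter of each embryo is not given, so p-values measure the spread between 2 embryos a side.

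Nprl3 is a subunit of GATOR1, the complex that switches off the Rag GTPases on the lysosome, and with them the growth kinase mTORC1, when amino acids are scarce. Loss of GATOR1 leaves mTORC1 active, and mTORC1 in turn promotes translation, glycolysis and, through the transcription factor ATF4, the synthesis and uptake of amino acids. Erythroblasts at S3 make haemoglobin at a high rate while they still divide.

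The total count was 21375730 and 23008732 in KO embryos 2 and 9, and 26041199 and 26012168 in Het embryos 3 and 4. Counts were scaled by the trimmed mean of M-values (TMM), and every count given for a library is such a normalized count unless named otherwise. The 4 libraries were erythroid, with the summed level of 10 erythroid markers between 90880 and 102700 CPM (counts scaled to the same total in each library) and the globin genes at 10.0% and 10.6% of counts in the KO libraries and 11.9% and 11.6% in the Het libraries. The sexes in the labels matched the counts of Xist and Ddx3y. The study assigned sex from reads on Y-linked genes, so the match with Ddx3y is not a separate check. The KO libraries were further from each other than the Het libraries were. By at least 2-fold, 958 genes differed between KO embryos 2 and 9 and 350 between Het embryos 3 and 4. From Het embryos 3 and 4, KO embryo 2 differed in 792 and 677 genes and KO embryo 9 in 1021 and 911. By this count both KO libraries were closer to Het embryo 4 than to each other. KO embryo 9 had the highest sum of 11 megakaryocyte markers, 101 CPM against 39.6 to 47.1 in the other 3 libraries. Its Pf4 and Ppbp, which encode platelet chemokines, stood at 21.9 and 19.99 CPM, against at most 2.54 and 0.884 CPM in those libraries. Not every marker was highest in it. Gp9 stood at 19.5 CPM against 19.9 to 20.4 in the others, Vwf at 9.74 against 8.22 to 11.8, and Gp1bb was at 0 in every library.

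The targeted gene was examined first. At S3, Nprl3 (ENSMUSG00000020289.16, chromosome 11, 32175628 to 32217707, minus strand, mm39) had 1905 and 2018 normalized counts in KO embryos 2 and 9 and 2619 and 2166 in Het embryos 3 and 4. Both KO values lay below both Het values, but their log2 ratio of −0.29 (standard error, SE, 0.15) did not pass edgeR's quasi-likelihood test (adjusted p = 0.555, by Benjamini and Hochberg over 11345 genes). At S1, the earlier stage sorted from the same 4 embryos, Nprl3 stood at 13.51 and 29.3 in the KO libraries and 535 and 556 in the Het libraries, a log2 fold change of −4.65 (SE 0.35, adjusted p = 0.00162 in edgeR). The count covers the whole gene, including spliced transcripts that begin at the α-globin enhancers in its introns, so the S3 count does not test the promoter deletion, while the S1 count of the same embryos matches the genotypes. Transcripts of the 2 kinds were not told apart here. Mpg, which encodes a DNA glycosylase and lies within the bounds of Nprl3 on the other strand, differed by 0.0041 (log2, SE 0.13), and counting without strand left out reads that overlap both genes. Snrnp25 differed by −0.24 (SE 0.14). Rhbdf1, an inactive rhomboid protease gene at 31.9 and 58.5 against 5.97 and 12.2 normalized counts, had a log2 fold change of 2.29 (SE 0.54, adjusted p = 0.185 in edgeR).

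Across all genes, 16 were higher in KO (0.141% of 11345 tested) and 2 were lower (0.0176%) at an adjusted p under 0.05 in edgeR. At an unadjusted p under 0.05, 613 genes were higher (5.4%) and 585 lower (5.16%). The median log2 fold change over all genes was 0.0195. Both KO libraries lay above both Het libraries for 21.7% of genes and below both for 21.1%. Of the 16 genes that rose, 9 belonged to the lists described below, with 5 interferon-stimulated genes, 3 ATF4 targets and Pfkp, a glycolytic enzyme. The other 7 belonged to no list. Upper-quartile scaling left 5 higher and 0 lower (1242 genes at an unadjusted p under 0.05). DESeq2 called 119 higher (1.05%) and 63 lower (0.555%). The shares of all genes in this paragraph are the background for the counts of each list below.

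**Figure D1:**
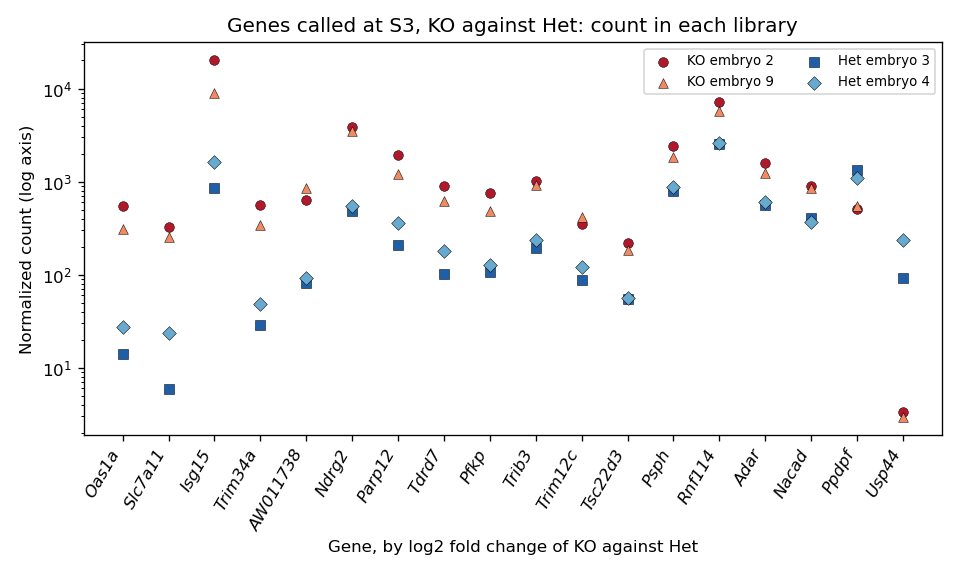
Normalized count (log axis) of the 18 genes called between KO and Het at S3, in order of log2 fold change, with 1 symbol for each of the 4 libraries. The KO and Het symbols do not overlap for any of the 18 genes, and Ppdpf and Usp44 are the 2 that were lower in KO.

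The call with the smallest p was Ndrg2 (chromosome 14, 52142728 to 52151615), a member of the N-myc downstream-regulated family. It stood at 3901 and 3452 normalized counts in KO embryos 2 and 9, and at 483 and 539.7 in Het embryos 3 and 4. The log2 fold change was 2.85 (SE 0.15, adjusted p = 0.0018 in edgeR). At S1 the same contrast gave 1.28 (SE 0.20, adjusted p = 0.0793), with 807 and 727 against 324 and 308. Rnf114, which encodes a ubiquitin ligase, rose to 7076 and 5733 from 2536 and 2572 (log2 fold change 1.33, SE 0.15, adjusted p = 0.0364). For both genes the Het libraries were close together and the KO libraries well above them. Tsc22d3, a glucocorticoid-induced leucine zipper gene on chromosome X, rose to 220.2 and 184 from 54.8 and 55.6. Nacad, a paralogue of the α subunit of the nascent polypeptide-associated complex, stood at 896 and 857 against 410.1 and 367. Both passed with an adjusted p of 0.0477. Rnf114, Tsc22d3, Nacad and Trim12c are named because they were called, outside the rule for named genes, and after their values were seen.

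Interferon-stimulated genes made up the largest group of calls in the lists examined. These genes are switched on by type I and type II interferons through STAT and IRF factors and act against viruses. Of 73 in the list, 54 passed the filter on low counts. Of those, 51 had a log2 fold change above 0 (94.4%, against 52.9% of all genes), and the median was 1.65 (all genes, 0.0195). In edgeR 5 were called higher (0.141% of all genes were) and 0 lower. At an unadjusted p under 0.05, 46 were higher (5.4% of all genes) and 0 lower. DESeq2 called 32 higher (1.05% of all genes) and 0 lower. Both KO libraries lay above both Het libraries for 46 of the 54 (85.2%, against 21.7% of all genes). Only 2 of the 54 passed the filter through the KO libraries alone, with a Het mean of 10 or less, and the median over the other 52 was 1.63. KO embryo 2 was above KO embryo 9 for 52 of the 54 and Het embryo 4 above Het embryo 3 for 44. The median difference from the Het mean, on the log2(count + 1) scale, was 1.96 in KO embryo 2 and 1.32 in KO embryo 9, against −0.25 and 0.25 in Het embryos 3 and 4.

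The largest call of the group by fold was Oas1a (chromosome 5, 121034319 to 121045584), an oligoadenylate synthetase that senses double-stranded RNA. It had 552 and 307 normalized counts in KO embryos 2 and 9 and 13.9 and 27.3 in Het embryos 3 and 4, a log2 fold change of 4.36 (SE 0.41, adjusted p = 0.0211 in edgeR). Isg15 (chromosome 4, 156283912 to 156285253), a ubiquitin-like protein that is attached to other proteins, stood at 20116 and 8888 against 843 and 1633 (log2 fold change 3.55, SE 0.45, adjusted p = 0.0477). Trim34a, a tripartite motif gene, had 554 and 345 against 28.9 and 48.0 (log2 fold change 3.54, SE 0.34, adjusted p = 0.0211). In each of these 3 genes KO embryo 2 was the highest library and Het embryo 3 the lowest. Parp12, an ADP-ribosyltransferase, rose to 1929 and 1198 from 210.0 and 357. Adar, which deaminates adenosine in double-stranded RNA, rose to 1582 and 1242.5 from 561 and 605. Their log2 fold changes were 2.46 (SE 0.31) and 1.28 (SE 0.16), both with an adjusted p of 0.0477. Oas1a has close copies in its cluster and Trim34a in its own, and reads that mapped to several places were not counted.

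Genes just short of the threshold included Igtp, an interferon-inducible GTPase, at 5084 and 2635 normalized counts against 509.7 and 874, Helz2, a helicase, at 274 and 224 against 68.7 and 89.5, and Ifih1, a sensor of viral RNA, at 769.5 and 598 against 220.0 and 297. Each had an adjusted p of 0.061 in edgeR. Members at the other end of the list were Ifit2, at 57.2 and 48.8 against 71.7 and 57.5, and Ube2l6, the conjugating enzyme for Isg15, with a log2 fold change of −0.13 (SE 0.16). These 2 were chosen after their values were seen. Of the called genes outside the list, Trim12c is a tripartite motif gene of the same chromosome 7 cluster as Trim34a and stood at 352 and 413 against 87.6 and 119.6. Tdrd7, a tudor domain gene, stood at 898 and 612 against 102 and 181. AW011738, a long non-coding RNA that starts 2474 bases from the start of Isg15 on the other strand, stood at 633 and 849 against 80.6 and 91.4 (log2 fold change 3.10, SE 0.21, adjusted p = 0.00423).

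Interferon response genes often carry a pair of GAAA repeats near their start, the core of the interferon-stimulated response element (ISRE). The 150 bases before and 30 bases from the start are given for the pair of called genes with more than 1 match, so that the repeats can be seen beside the counts. Sequences are from RefSeq in the GRCm38.p6 build, which is not the build of the counts, and lie at chr4:156200789-156200968 for Isg15 and chr5:120907496-120907675 for Oas1a, both on the minus strand and read 5′ to 3′ along the gene. Capitals mark matches to GAAANNGAAA, which overlap in both genes.
Isg15: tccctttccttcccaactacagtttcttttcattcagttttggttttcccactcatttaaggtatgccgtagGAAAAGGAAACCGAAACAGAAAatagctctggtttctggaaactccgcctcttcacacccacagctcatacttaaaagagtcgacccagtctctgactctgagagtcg
Oas1a: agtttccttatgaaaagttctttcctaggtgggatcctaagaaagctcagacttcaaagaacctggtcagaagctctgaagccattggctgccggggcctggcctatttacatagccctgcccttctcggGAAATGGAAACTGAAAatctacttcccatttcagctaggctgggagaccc
The Isg15 window held 3 matches, the first 78 bases before the start, and the Oas1a window 2, the first 20 bases before it. Over windows from 250 bases before to 50 bases after a start, searched on both strands, 44.2% of the tested interferon-stimulated genes with a promoter in the table held a match (19 of 43), against 3.67% of all tested genes with one (296 of 8073) and 3.99% of the 27025 genes in the table. Parp12 and Adar held none in these windows.

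MHC class I genes, which present peptides to T cells, are also interferon targets. Of 17 tested, 15 had a log2 fold change above 0 and the median was 0.50, which became 0.30 without KO embryo 2 and 0.70 without KO embryo 9. None passed the edgeR test. At an unadjusted p under 0.05, 8 were higher (5.4% of all genes) and 0 lower, and DESeq2 called 3 higher (1.05% of all genes). H2-T24 had 1752 and 1882 normalized counts in the KO libraries and 853 and 929 in the Het libraries (log2 fold change 1.03, SE 0.14, adjusted p = 0.0568). H2-D1 stood at 4780.2 and 2977 against 1778 and 2319.

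**Figure D2:**
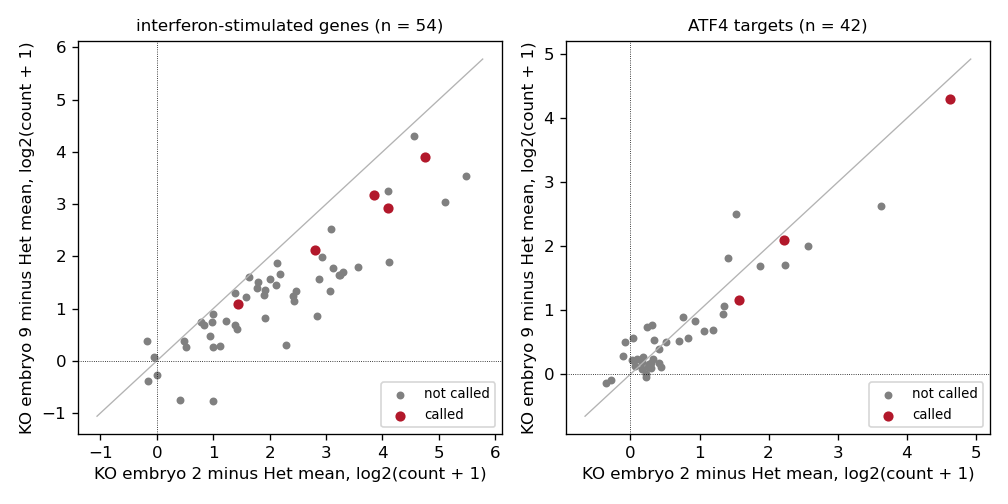
Each point is a gene of the interferon list (left, 54 genes) or the ATF4 list (right, 42 genes), placed by its difference from the Het mean on the log2(count + 1) scale in KO embryo 2 (horizontal axis) and KO embryo 9 (vertical axis), with called genes in red and a grey line where both are equal. Interferon genes lie mostly under the line, 52 of 54 with a higher count in embryo 2, while ATF4 targets lie on both sides of it, 26 of 42 with a higher count in embryo 2.

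ATF4 targets were the next group. ATF4 is the transcription factor of the integrated stress response, is also raised by mTORC1, and drives genes for amino acid synthesis and transport and for tRNA charging. Of 50 in the list, 42 were tested, 40 had a log2 fold change above 0, and 3 were called higher and 0 lower. The median was 0.43. At an unadjusted p under 0.05, 21 were higher and 0 lower, and DESeq2 called 16 higher and 0 lower. Both KO libraries lay above both Het libraries for 34 of the 42 (81.0%, against 21.7% of all genes). The median difference from the Het mean was 0.38 in KO embryo 2 and 0.51 in KO embryo 9.

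Trib3 (chromosome 2, 152179342 to 152185952), a pseudokinase that is induced in the stress response, stood at 1004 and 916 normalized counts in KO embryos 2 and 9 and 193 and 236 in Het embryos 3 and 4. Its log2 fold change was 2.16 (SE 0.16, adjusted p = 0.0066 in edgeR). Slc7a11 (chromosome 3, 49846975 to 50398063), the exchanger that brings in cystine for glutamate, stood at 323 and 257 against 5.97 and 23.5 (log2 fold change 4.27, SE 0.47, adjusted p = 0.0364). Psph, which makes serine from phosphoserine, rose to 2439.7 and 1843 from 782 and 867 (log2 fold change 1.38, SE 0.18, adjusted p = 0.0477). In all 3 genes the KO libraries were apart from the Het libraries by more than either pair was apart. Psph overlaps Cct6a on the other strand, and reads over both were not counted. The ATF4 transcript itself had 5111 and 7584 against 5529 and 5228 normalized counts, a log2 fold change of 0.24 (SE 0.19), and Asns, which makes asparagine, had one of 0.28 (SE 0.15). Atf4 and Asns are named after their values were seen.

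A short motif, TGATGNAA, is the core of the element that ATF4 binds with C/EBP partners (CARE). It is shown in capitals for the 2 called genes of the list whose windows held it, at chr3:50443584-50443763 for Slc7a11 and chr2:152344031-152344210 for Trib3, both on the minus strand of GRCm38.p6, over the same 150 bases before and 30 bases from the start.
Slc7a11: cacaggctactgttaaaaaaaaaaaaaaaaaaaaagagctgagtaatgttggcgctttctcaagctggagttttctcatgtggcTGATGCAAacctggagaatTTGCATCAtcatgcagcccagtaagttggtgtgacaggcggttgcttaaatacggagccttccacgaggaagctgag
Trib3: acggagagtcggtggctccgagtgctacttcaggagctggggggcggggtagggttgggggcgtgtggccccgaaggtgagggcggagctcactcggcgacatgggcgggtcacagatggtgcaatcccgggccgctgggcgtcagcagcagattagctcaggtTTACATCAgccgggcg
Slc7a11 held 2 matches, 1 on each strand and first 66 bases before the start, and Trib3 held 1 on the opposite strand, from base 15 of the transcript. Of the tested ATF4 targets with a promoter in the table, 25.9% held a match on either strand (7 of 27), against 2.51% of all tested genes with one (203 of 8073). Among the tested interferon-stimulated genes the share was 11.6% (5 of 43), and Trim34a was one of the 5. Psph held none in its window.

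The study drew a heatmap of 11 genes of glycolysis and of serine and alanine synthesis. It chose them on libraries of this series, so their direction is not independent evidence. The same holds where they recur in the ATF4, serine and glycolytic lists. All 11 had a log2 fold change above 0 at S3, 2 were called higher and 0 lower, and the median was 0.89. At an unadjusted p under 0.05, 10 were higher and 0 lower, and DESeq2 called 10 higher and 0 lower. Pfkp (chromosome 13, 6629804 to 6698813), the platelet isoform of phosphofructokinase, had 755 and 482 normalized counts in KO embryos 2 and 9 and 106 and 126 in Het embryos 3 and 4. The log2 fold change was 2.41 (SE 0.25, adjusted p = 0.0337 in edgeR). Psph was the other call. The remaining 9 had adjusted p-values from 0.0998 to 0.516. Among them, Phgdh, the first enzyme of serine synthesis, stood at 4737 and 3630.1 against 2163 and 2366. Aldoa, the glycolytic aldolase, stood at 8181 and 6201 against 3298 and 4006. Pkm, a pyruvate kinase gene, was the only one of the 11 whose KO and Het libraries overlapped, at 2828 and 1550 against 1418 and 1577.

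Over the full list of glycolytic enzymes, 18 of 25 were tested, 16 had a log2 fold change above 0, and the median was 0.31. Pfkp alone was called, 8 were higher and 1 lower at an unadjusted p under 0.05, and DESeq2 called 7 higher and 1 lower. Differences between isoforms were not tested. Pfkm and Pfkl, the muscle and liver isoforms of phosphofructokinase, had log2 fold changes of 0.060 (SE 0.17) and 0.18 (SE 0.13), and Pklr, the erythroid pyruvate kinase, of 0.036 (SE 0.12). These 3 are named after their values were seen. Of 16 enzymes of serine and folate one-carbon metabolism tested, 9 had a log2 fold change above 0 with a median of 0.14, Psph was the only call in edgeR, 6 were higher and 0 lower at an unadjusted p under 0.05, and DESeq2 called 4 higher. That median was 0.25 without either KO embryo and 0.21 without Het embryo 3. The tricarboxylic acid cycle enzymes had a median of −0.035 over 20 genes, with 0 called in edgeR and in DESeq2 and 1 at an unadjusted p under 0.05, and one of −0.16 without KO embryo 2 and 0.080 without KO embryo 9.

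**Figure D3:**
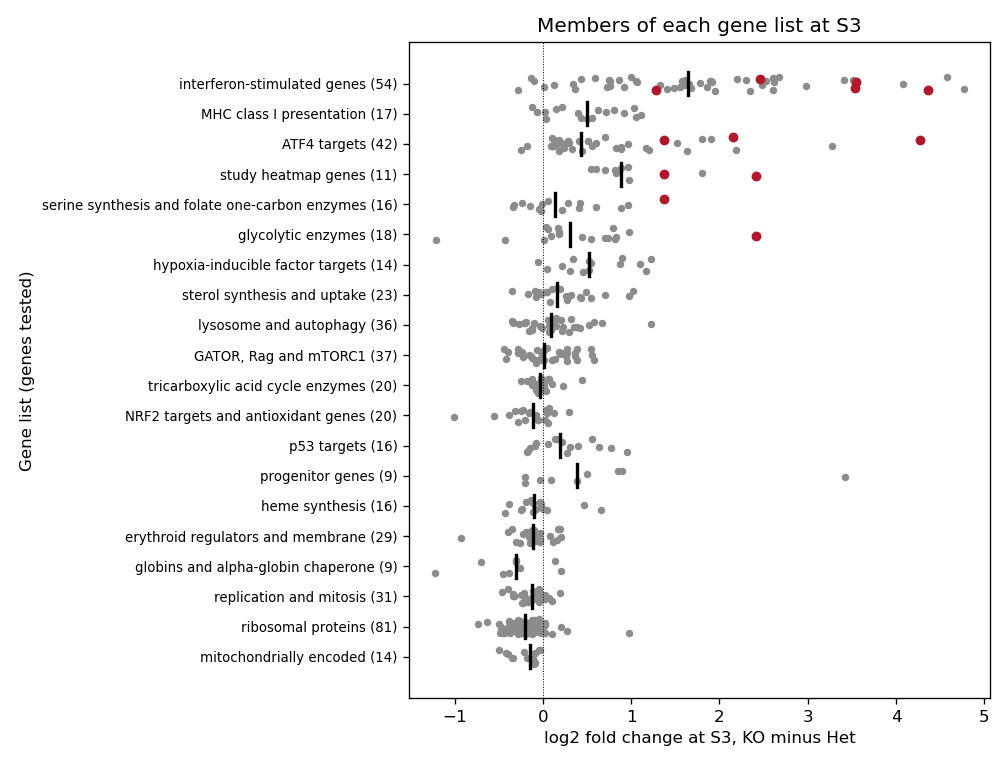
log2 fold change of KO minus Het at S3 (horizontal axis) for every tested member of 20 gene lists (rows), with called genes in red and the median of each list as a black bar. The interferon list has the highest median, 1.65, and the ribosomal protein genes, heme enzymes, globins and erythroid genes have medians between −0.31 and −0.10.

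Targets of the hypoxia-inducible factors, several of which are glycolytic or mitochondrial regulators, had a median of 0.53 over 14 tested, 13 of them above 0. In edgeR 0 were called. At an unadjusted p under 0.05, 7 were higher (5.4% of all genes) and 0 lower, and DESeq2 called 2 higher (1.05% of all genes). P4ha1, a collagen prolyl hydroxylase subunit, stood at 395 and 504 normalized counts in KO and 195 and 226 in Het (log2 fold change 1.09, SE 0.19, adjusted p = 0.0955). Bnip3, a mitophagy receptor, stood at 2445 and 1373 against 745 and 885. Sterol genes had a median of 0.16 over 23 genes, with 5 higher at an unadjusted p under 0.05. Lysosome and autophagy genes had one of 0.092 over 36 with 3 higher, and p53 targets one of 0.19 over 16 with 1 higher. Of all genes, 5.4% were higher at that p. No member of these 3 lists was called in edgeR. DESeq2 called 0, 1 and 0 of them in the same order. The sterol median was 0.084 without KO embryo 9, and that of p53 targets 0.11 without Het embryo 3.

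Genes of the pathway that Nprl3 acts in held no call. Of 40 genes of the GATOR complexes, Rag GTPases and mTORC1, 37 were tested, and 0 were called in edgeR or DESeq2. As edgeR called 0.141% of all genes higher and 0.0176% lower, 0 of 37 says little. At an unadjusted p under 0.05, 2 were higher and 2 lower, where all genes gave 5.4% and 5.16%. The median log2 fold change was 0.0065, and it lay between 0.0037 and 0.038 with 1 embryo left out. The other GATOR1 subunits, Nprl2 and Depdc5, had log2 fold changes of 0.36 (SE 0.17) and −0.012 (SE 0.21). Rptor, the subunit that brings substrates to mTORC1, had 248 and 275 normalized counts against 360.3 and 352, and Sesn2, a leucine sensor and ATF4 target, 299 and 412 against 265 and 219. The 2 subunits of GATOR1 are named after their values were seen.

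The globin, erythroid regulator and membrane, and heme synthesis lists held no call in edgeR. Of 9 globin genes, 7 had both KO libraries below both Het libraries (77.8%, against 21.1% of all genes), with a median log2 fold change of −0.31. In edgeR 0 were called, 4 were lower and 0 higher at an unadjusted p under 0.05, and DESeq2 called 1 lower. Hbb-bh1, a β-like globin of the primitive lineage, stood at 9393 and 14321 normalized counts in KO embryos 2 and 9, and at 29815 and 25322 in Het embryos 3 and 4 (log2 fold change −1.22, SE 0.21, adjusted p = 0.0955). The adult genes Hba-a1 and Hba-a2 had log2 fold changes of −0.26 (SE 0.16) and −0.45 (SE 0.16). These 2 are near-identical copies, so their shares are uncertain. The other primitive globins, Hbb-y and Hba-x, overlapped between the genotypes, since Het embryos 3 and 4 stood at 28150 and 12396 for Hbb-y. In bulk libraries, fewer cells of a kind and less RNA per cell cannot be told apart.

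Erythroid regulators and membrane genes had a median of −0.11 over 29 genes, with both KO libraries below both Het libraries for 7 of them (24.1%, against 21.1% of all genes). The median difference from the Het mean was −0.27 in KO embryo 2 and −0.00053 in KO embryo 9. Without KO embryo 2 the median log2 fold change was −0.0039, with 14 of the 29 above 0, and without KO embryo 9 it was −0.27, with 0 above 0. It was −0.026 without Het embryo 3 and −0.19 without Het embryo 4. In edgeR 0 were called, with 3 lower and 0 higher at an unadjusted p under 0.05, and DESeq2 called 1 lower. Aqp1, the red cell water channel, had 356 and 369.6 normalized counts against 773 and 612. Heme synthesis had a median of −0.10 over 16 genes with 0 called in edgeR or DESeq2 and 2 lower at an unadjusted p under 0.05, among them Alad, the second enzyme of the pathway, at −0.42 (SE 0.17). The heme median was −0.015 without Het embryo 3 and −0.18 without Het embryo 4. Replication and mitosis genes had a median of −0.12 over 31 with 0 called by either tool and 4 lower at an unadjusted p under 0.05, and one of −0.19 without KO embryo 2 and −0.077 without KO embryo 9. Cdk1, the mitotic kinase, stood at 9639 and 8889 against 12940 and 12637. Ribosomal protein genes had a median of −0.20 over 81, with 0 called in edgeR, 17 lower and 0 higher at an unadjusted p under 0.05, and 2 lower in DESeq2. Their median difference from the Het mean was −0.037 in KO embryo 2 and −0.36 in KO embryo 9, and the median log2 fold change was −0.037 without embryo 9 and −0.36 without embryo 2. Antioxidant genes had a median of −0.11 over 20, with 0 called in edgeR, 1 lower in DESeq2 and 2 lower at an unadjusted p under 0.05. That median was −0.022 without KO embryo 9, −0.21 without KO embryo 2 and −0.052 without Het embryo 3. One of the 2 was Hmox1, the heme-degrading oxygenase, at 164 and 182 against 391 and 307 (adjusted p = 0.126). Progenitor genes had a median of 0.39 over 9 tested, with 3 higher at an unadjusted p under 0.05, 0 called in edgeR and 1 higher in DESeq2. The median fell to 0.0083 without KO embryo 9 and 0.21 without Het embryo 4. Cd34, one of the 3, passed the filter only through KO embryo 9, at 91.7 normalized counts against 4.40 in KO embryo 2 and 8.96 and 0 in the Het embryos. The median over the other 8 genes was 0.24. The 14 mitochondrially encoded genes tested had a median of −0.15, with 0 called by either tool and 1 lower at an unadjusted p under 0.05. Their median difference from the Het mean was −0.43 in KO embryo 2 and −0.036 in KO embryo 9. The median log2 fold change was −0.047 without KO embryo 2, −0.44 without KO embryo 9, −0.28 without Het embryo 3 and −0.0058 without Het embryo 4.

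The 2 genes called lower belonged to none of the lists. Usp44, a deubiquitinase gene (chromosome 10, 93667417 to 93693950), had 3 reads in each KO library and 93 and 249 in Het embryos 3 and 4. The ratio of KO to Het was 0.0187 (95% interval 0.00683 to 0.0412, exact binomial, for counting error only), with an adjusted p of 0.0364 in edgeR. The Het libraries were themselves apart by more than 2-fold. Ppdpf, a small gene named for pancreatic progenitors, fell to 504 and 547 normalized counts from 1328 and 1086 (log2 fold change −1.20, SE 0.15, adjusted p = 0.0477). Next in order of p, and not called, were Zfp185, an actin-associated LIM gene on chromosome X, at 53.9 and 54.6 against 220.0 and 168 (adjusted p = 0.0574), and Lgals1, galectin 1, at 3687 and 3242 against 6705 and 6178 (adjusted p = 0.0675).

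Markers of other cells were summed per library, and their part in the results above was not tested. Macrophage markers (16 genes), from cells that also express interferon-stimulated genes, came to 28.6 and 20.5 CPM in KO embryos 2 and 9 and 50.7 and 38.1 CPM in Het embryos 3 and 4, with Cd163 and Vsig4 at 0 in every library. The sum was thus lower in both KO libraries (two-sided exact permutation p = 0.333, the smallest that 2 against 2 allows). All 12 of them that were tested had a log2 fold change below 0, with a median of −1.12, 0 called in edgeR and 7 lower at an unadjusted p under 0.05. Megakaryocyte markers (11 genes) came to 47.1 and 101 CPM against 39.6 and 41.9, neutrophil markers (11) to 1.22 and 11.5 against 1.80 and 0.884, and endothelial markers (7) to 3.79 and 12.6 against 3.07 and 2.61. In each of these lists KO embryo 9 was the highest library. Hepatoblast markers (17) came to 88.2 and 227 against 125 and 175 CPM, and the genotypes overlapped. The 3 primitive globins came to 1559 and 1982 against 2493 and 1671 CPM, which also overlapped. Without KO embryo 9, 51 of the 54 interferon-stimulated genes had a log2 fold change above 0 with a median of 1.92, and 38 of the 42 ATF4 targets with one of 0.38. That fit rests on KO embryo 2 alone, the KO library with the higher interferon level, and does not test the part of other cells.

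**Figure D4:**
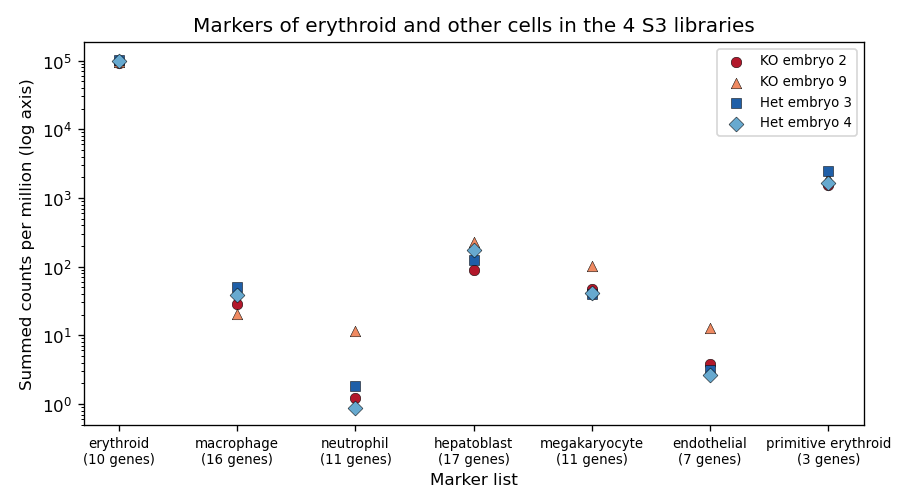
Summed CPM (log axis) of 7 marker lists (horizontal axis) in the 4 S3 libraries, with 1 symbol a library. Erythroid markers lie near 90880 to 102700 CPM in every library, and KO embryo 9 is the highest for neutrophil, megakaryocyte and endothelial markers.

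The same contrast at S1 used the earlier cells of the same 4 embryos. There 3 genes were higher and 3 lower of 13814 tested (0.0217% each) in edgeR, with 922 at an unadjusted p under 0.05. All 54 interferon-stimulated genes had a log2 fold change above 0 at S1, with a median of 1.38, and Parp12 was the one called, at 2.27 (SE 0.27, adjusted p = 0.0363). ATF4 targets had a median of 0.13 at S1 with 32 of 42 above 0, the 11 heatmap genes one of 0.17, and glycolytic enzymes one of 0.15. Globin genes had a median of 0.63 over 8 tested at S1, where S3 gave −0.31, but the KO embryos lay on opposite sides of the Het embryos. KO embryo 2 was below both Het embryos for all 8 and KO embryo 9 above both for all 8, with median differences from the Het mean of −0.78 and 1.38. Hba-a1, for example, stood at 12753 and 44502 normalized counts in KO embryos 2 and 9 at S1 and 17022 and 24239 in Het embryos 3 and 4. Mitochondrially encoded genes had a median of 0.38 at S1, with median differences from the Het mean of 0.11 in KO embryo 2 and 0.66 in KO embryo 9. Markers of other cells were also unequal at S1. Hepatoblast markers came to 58.1 and 304 CPM in KO embryos 2 and 9 and 74.6 and 48.4 CPM in Het embryos 3 and 4. Megakaryocyte markers came to 50.2 and 137 against 41.3 and 34.4 CPM, the primitive globins to 2.72 and 43.7 against 6.16 and 4.55 CPM, and macrophage markers to 92.0 and 105 against 49.2 and 69.8 CPM. Neutrophil markers, the largest sum other than the erythroid one, came to 2211 and 2609 against 2166 and 2101 CPM, endothelial markers to 7.21 and 13.2 against 4.61 and 3.18 CPM, and the 10 erythroid markers to 2424 and 4615 against 2784 and 2945 CPM. KO embryo 9 was the highest library for each of the 7 lists, and both KO libraries lay above both Het libraries for macrophage, megakaryocyte, neutrophil and endothelial markers. Their part in the S1 values and in the comparison of the stages was not tested.

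**Figure D5:**
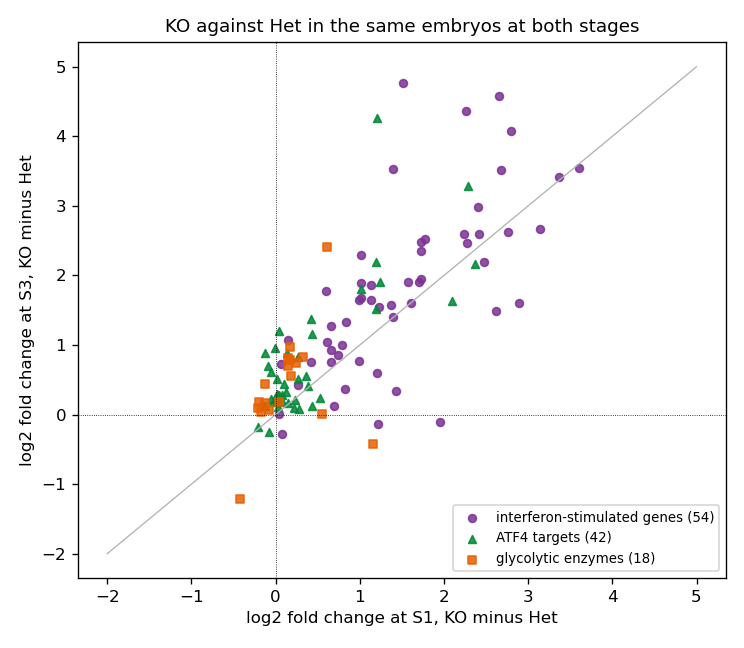
log2 fold change of KO minus Het at S1 (horizontal axis) and S3 (vertical axis) for members of 3 lists, each from a fit to 4 libraries of the same embryos, with a grey line where both are equal. Interferon genes lie to the right of 0 at S1 and mostly above 0 at S3. Above the line lie 39 of 54 interferon genes, 34 of 42 ATF4 targets and 15 of 18 glycolytic enzymes (such as Pfkp, 0.61 at S1 and 2.41 at S3). Of all genes tested at both stages, 52.9% lie above it. The ATF4 and glycolytic lists hold heatmap genes, Pfkp among them, which the study chose for being higher in KO at S3. The counts of these 2 lists are thus not independent evidence of a difference between the stages.

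Whether an effect differed between the stages was tested as the interaction of genotype and stage over 8 libraries. Nprl3 was the one gene called (0.00754% of 13271 tested, edgeR), with an S3 effect minus S1 effect of 4.35 (SE 0.33, adjusted p = 0.00385), and 735 genes had an unadjusted p under 0.05. Libraries with the same number come from the same embryo, and with the embryo as a block 55 genes were called (0.414%), 30 with the S3 effect above the S1 effect and 25 below. They included 6 ATF4 targets, 5 interferon-stimulated genes, 6 of the 11 heatmap genes, 1 globin gene, 6 mitochondrially encoded genes, 1 hepatoblast marker and 1 neutrophil marker. The ATF4 and heatmap lists share 4 of these genes, so that 8 genes lay in one or the other. The study chose the heatmap genes for being higher in KO than in wild type at S3, with KO libraries of this series, so their count here is not independent evidence of a difference between the stages. The 6 mitochondrial genes all had the S3 effect below the S1 effect, from −0.68 for mt-Nd2 to −1.28 for mt-Rnr1, as did the globin gene, Hbb-bh1, at −1.55 (SE 0.26, adjusted p = 0.0201). With the block, Ndrg2 differed by 1.57 (SE 0.15, adjusted p = 0.000512), Pfkp by 1.78 (SE 0.20, adjusted p = 0.00197) and Phgdh by 0.997 (SE 0.13, adjusted p = 0.00532), all higher at S3. Among the interferon genes, Oas1a differed by 2.12 (SE 0.28, adjusted p = 0.00532) and Trim34a by 2.17 (SE 0.31, adjusted p = 0.0101), while Ube2l6 differed by −1.38 (SE 0.23, adjusted p = 0.0171). Without the block the adjusted p-values of the genes named here other than Nprl3 lay between 0.127 and 0.898, so only Nprl3 was called by both fits.

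How many genes were called rested on the library pairs. Without Het embryo 3 the S3 fit called 0 higher and 1 lower in edgeR, without Het embryo 4 13 and 1, without KO embryo 9 602 and 507, and without KO embryo 2 1334 and 1399. When a KO library is left out, the spread is estimated from the Het pair alone, which was the closer pair, and the lone library is taken to vary as they do. All 18 called genes kept their direction in each of these 4 fits. Their KO and Het counts did not overlap, so leaving out 1 library could hardly turn them, and this does not test the calls.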

How the data were processed

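Per the labels and the methods, the authors amplified poly(A) RNA, mapped reads to mm39 with STAR 2.7.9 and counted read pairs per gene with featureCounts 1.6.4 without strand, leaving out reads that mapped to several places or to several genes. They deposited raw counts for 55416 genes, and 54749 were matched to a symbol in GENCODE. Table columns that match no sample (4) were not used.

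Counts of the 4 libraries were normalized with TMM, genes with a mean normalized count of 10 or less were left out, and KO and Het were tested with edgeR 4.0.16 (quasi-likelihood, R 4.3.3) without covariates at an adjusted p under 0.05. A list is described by its counts and median only. The KO and Het groups of a stage share no embryo number, so the embryo block applies only across stages. The deviations of same-numbered libraries from their group means correlated at 0.375 (KO) and 0.0404 (Het) over 13271 genes. Scripts were checked on simulated counts.

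Members and lists were chosen with earlier results of these data known. Named genes were Nprl3 and neighbours, the heatmap genes, in each direction the 10 largest called changes without overlap (filled with the smallest p among genes with a mean of at least 100), 8 interferon genes and 3 of each other list by p. Some of these are not reported here. Alternatives were other scalings, filters, tools (DESeq2 1.42.0), a joint fit of 8 libraries, sex as a covariate, X and Y genes left out, and each embryo left out.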

Additional observations from a re-analysis of the deposited data

Results flagged for a closer look

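The effect of genotype on Nprl3 differed between the stages by the interaction test. KO minus Het was −4.65 at S1 and −0.30 at S3 in the fit of 8 libraries, a difference of 4.35 on the log2 scale (SE 0.33, adjusted p = 0.00385, edgeR). The difference was 4.36 with the embryo as a block and 4.39 in DESeq2, and 3.98 to 4.99 with any 1 embryo left out. It was not past the threshold without Het embryo 3 (adjusted p = 0.692) or Het embryo 4 (adjusted p = 0.971). Groups of 2 libraries are too small for a search for outlying samples.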

How the results depend on the processing

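Calls rest on 2 libraries a side, and no lower depth was tried. No alternative turned the direction of any of the 18 called genes that it tested. As their KO and Het counts did not overlap, this says little about whether a call holds. Genes higher and lower in KO numbered 16 and 2, and became 5 and 0 with upper-quartile scaling, 313 and 139 with no filter, 32 and 4 with filterByExpr, 7 and 0 with a mean above 100, 119 and 63 in DESeq2, 30 and 6 with 8 libraries in 1 fit, and 1331 and 1393 with sex as a covariate, where embryo 2, the only female, no longer informs the contrast. Leaving out 1 embryo gave 0 to 1334 higher and 1 to 1399 lower. The other settings (DESeq2 size factors in edgeR, globins out of the scaling, newer quasi-likelihood, X and Y genes left out) gave 16 to 21 higher and 2 lower. The interaction called 1 gene, 55 with the replicate block by embryo, 10 in DESeq2 and 0 to 263 with 1 embryo left out.

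The interferon median, 1.65, was 1.24 with sex as a covariate, 1.62 to 1.65 in the other fits of all 4 or 8 libraries, and 1.24 to 2.02 with 1 embryo left out. That of ATF4 targets, 0.43, moved to 0.50 with no filter, 0.30 with a mean above 100 and 0.51 with sex as a covariate, and to 0.38 to 0.51 with 1 embryo left out. That of the heatmap genes, 0.89, moved to 0.68 with sex as a covariate and 0.68 to 1.06 with 1 embryo left out. That of glycolytic enzymes, 0.31, moved to 0.43 with no filter, 0.19 with filterByExpr, 0.55 with a mean above 100, 0.18 with X and Y genes left out, and 0.32 to 0.45 with 1 embryo left out. Filters change which members are tested, and in the other cases the cause was not tested. Mpg, near 0, changed sign to −0.017 with upper-quartile scaling, −0.0015 with DESeq2 size factors and in DESeq2, −0.0072 with no filter, −0.0070 with 8 libraries and −0.023 with sex as a covariate, and lay between −0.023 and 0.032 with 1 embryo left out.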
